A study of Mus musculus with 10 samples.

Results

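The annexins are a family of proteins that bind negatively charged phospholipids in a calcium-dependent way. Of the 10 annexin genes chosen here by name (Anxa1 to Anxa9 and Anxa11), 9 were represented by 17 of the 22626 probe sets other than controls, counting only probe sets that the platform annotation gives to exactly 1 gene symbol. Those 9 are of 12393 genes named in this way. Anxa11 has no value here, because the 1 probe set that lists it also lists other symbols. The RNA was that of inguinal glands from lactating females, 5 of strain QSi5 and 5 of strain CBA, each at day 9 of a first lactation and each measured on 1 Affymetrix array. QSi5 is an inbred strain selected for large litters and short intervals between litters, and CBA (CBA/CaH in the methods) is an inbred strain without that selection. The glands were taken after a forced weaning, the mice carried no transgene or treatment according to the labels, and no age is given there. In each strain 3 mice were measured on the MOE430 2.0 chip and 2 on the MOE430A 2.0 chip. The comparison asks which annexin transcripts differ between a strain with high and a strain with lower lactation output.

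Annexins share a conserved core of repeats that coordinates calcium ions and lies on the membrane surface, while their N-terminal tails differ and bind partner proteins. They are known for roles in vesicle traffic, membrane repair and links between membranes and the actin cytoskeleton, and Anxa1 is also known as a mediator that limits inflammation. The lactating mammary epithelium secretes protein by exocytosis and fat by budding of membrane-wrapped globules, processes in which membranes and calcium meet continually.

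Sequences upstream of the transcription start are given for Anxa5, the annexin called on its brightest probe set, for Anxa4, which has annotated starts far apart and probe sets that disagree, and for Anxa1 and Anxa2, whose windows hold a TATA box. Each holds 250 bases, read 5′ to 3′ toward the start, from RefSeq on GRCm38.p6. They lie at chr3:36475888-36476137 (minus strand) for Anxa5, chr6:86793585-86793834 and chr6:86775115-86775364 (both minus strand) for the upstream and the downstream start of Anxa4, chr19:20390672-20390921 (minus strand) for Anxa1 and chr9:69453433-69453682 (plus strand) for Anxa2. Capitals mark matches, on either strand, to the GC box GGGCGG, the TATA box TATAAA, the CCAAT box (spelled as its name), the AP-1 motif TGANTCA or the Stat motif TTCNNNGAA, and every match was counted where matches overlapped.
Anxa5: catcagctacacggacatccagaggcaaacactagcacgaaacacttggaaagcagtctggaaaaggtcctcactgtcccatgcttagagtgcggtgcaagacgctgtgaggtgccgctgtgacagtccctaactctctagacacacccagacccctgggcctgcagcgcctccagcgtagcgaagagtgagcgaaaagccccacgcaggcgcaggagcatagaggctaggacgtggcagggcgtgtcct
Anxa4, upstream start: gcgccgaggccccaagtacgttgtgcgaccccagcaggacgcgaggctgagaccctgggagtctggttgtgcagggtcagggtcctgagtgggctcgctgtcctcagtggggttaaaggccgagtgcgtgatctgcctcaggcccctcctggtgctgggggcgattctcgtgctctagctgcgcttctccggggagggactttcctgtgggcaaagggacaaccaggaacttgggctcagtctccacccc
Anxa4, downstream start: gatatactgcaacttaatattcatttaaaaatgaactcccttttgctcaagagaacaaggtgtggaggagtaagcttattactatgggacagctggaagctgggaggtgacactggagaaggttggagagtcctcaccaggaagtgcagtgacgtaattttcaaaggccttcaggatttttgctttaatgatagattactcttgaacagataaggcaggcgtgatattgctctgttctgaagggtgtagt
Anxa1: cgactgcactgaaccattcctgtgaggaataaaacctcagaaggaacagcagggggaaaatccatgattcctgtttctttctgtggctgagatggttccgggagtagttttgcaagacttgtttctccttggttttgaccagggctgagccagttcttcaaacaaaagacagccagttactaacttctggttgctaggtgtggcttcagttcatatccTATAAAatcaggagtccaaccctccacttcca
Anxa2: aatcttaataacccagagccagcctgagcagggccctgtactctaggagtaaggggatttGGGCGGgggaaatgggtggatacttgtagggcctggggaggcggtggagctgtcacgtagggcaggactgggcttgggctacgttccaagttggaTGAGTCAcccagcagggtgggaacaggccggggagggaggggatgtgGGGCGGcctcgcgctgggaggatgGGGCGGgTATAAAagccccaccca
The windows of Anxa5 and of both Anxa4 starts held none of these letters. The windows of the 2 Anxa7 starts, not printed, overlap and held 1 and 4 GC boxes, the 1 box of the first being among the 4 of the second. That of Anxa1 held 1 TATA box, and that of Anxa2 held 1 TATA box, 3 GC boxes and 1 AP-1 motif. Among all 32851 promoter windows of this length, 32.7% held the GC box, 12.4% the TATA box, 33.8% the CCAAT box, 6.75% the AP-1 motif and 7.02% the Stat motif. The downstream window of Anxa4 held 2 CpG dinucleotides and its upstream window 13, beside a median of 6 over all windows. A match describes letters and shows nothing about binding in these glands.

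Values are log2 intensities as the authors normalised them, and the arrays were alike in scale, with medians from 4.21 to 4.30. A probe set was tested if either strain averaged above an unlogged intensity of 20, a log2 value of 4.32. This left 11412 probe sets, 9 of them annexin probe sets of 6 genes (Anxa1, Anxa2, Anxa4, Anxa5, Anxa6 and Anxa7). Milk protein genes marked the tissue, since all 10 genes of a list of secretory epithelium (the caseins, Wap and others) were above the minimum. In whole glands, fewer cells of a type and less RNA per cell cannot be told apart. CBA replicate 1 stood apart for the annexins. It had the highest level of all 10 mice on 7 of the 9 tested annexin probe sets, whereas it was highest on 12.4% of all tested probe sets. The same mouse had the highest value of Cd14, a receptor for bacterial lipopolysaccharide, at 11.41 against 7.55 to 9.87 in the other CBA mice. Other tested genes of the macrophage and neutrophil list did not share this, since Lyz2 was 5.49 in it against 5.38 to 7.33, Adgre1 5.90 against 5.89 to 6.39, Csf1r 6.92 against 6.58 to 7.35 and S100a8 3.20 against 3.28 to 8.48. It also had the highest summed unlogged level of 6 luminal epithelial markers, at 2111 against 1002 to 1697 in the other CBA mice, and of 7 myoepithelial markers, at 4064 against 1973 to 3635. The part of these differences in the annexin values was not tested, so annexin results that rest on this mouse are given with and without it.

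Of the 6 annexin genes tested, each on its brightest probe set, 1 was lower in QSi5 glands (Anxa5), none was higher and 5 did not pass the test. Over all 7361 genes tested in this way, 2.7% passed in either direction, 1.39% as lower and 1.32% as higher in QSi5 mice. At an unadjusted p under 0.05 the annexins that passed on their brightest probe set were Anxa5 and Anxa7, 2 of 6, beside 14.9% of all genes. The median log2 difference (QSi5 minus CBA) of the 6 annexins was -0.24, with 5 of 6 below 0, while the median over all genes was 0.0038 with 3616 of 7361 below 0. Without CBA replicate 1 the annexin median was -0.069 with 4 of 6 below 0, and that of all genes 0.0078. By probe set, 2 of the 9 annexin probe sets were called, both as lower in QSi5 mice, beside 2.94% of all tested probe sets (1.51% lower and 1.44% higher), and the second was a dim probe set of Anxa4 that reached the minimum through the CBA mice alone. Each call is at a Benjamini-Hochberg adjusted p under 0.05 from limma.

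**Figure D1:**
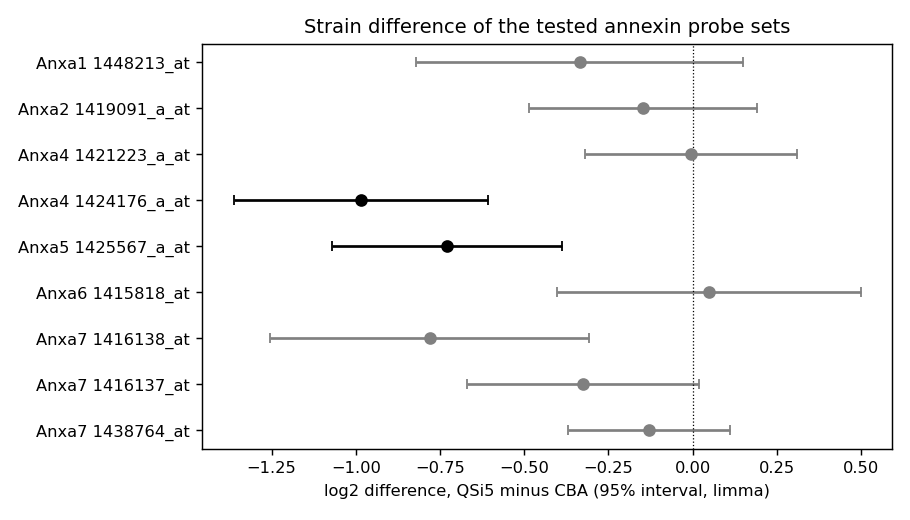
Log2 difference between the strains (horizontal axis, QSi5 minus CBA) for the 9 tested annexin probe sets, with 95% intervals from limma and the called probe sets in black. The intervals of Anxa5 and of the Anxa4 probe set 1424176_a_at lie wholly below 0, and so does that of Anxa7 probe set 1416138_at, which did not pass after adjustment. The Anxa4 probe set 1424176_a_at entered the test through the CBA mice alone, so its interval and black mark are not read as support.

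Anxa5, the annexin best known as a probe for phosphatidylserine on dying cells, was lower in every QSi5 mouse than in any CBA mouse. Its log2 intensities in CBA replicates 1 to 5 were 8.14, 7.47, 7.29, 7.60 and 7.24. In QSi5 replicates 1 to 5 they were 6.95, 6.76, 6.81, 6.73 and 6.85. The strains did not overlap, which held for 5.14% of all tested probe sets, and the QSi5 mice lay much closer together than the CBA mice. Anxa5 had only 1 probe set here, and whether the strains differ in sequence under its probes was not tested. The means were 7.55 ± 0.36 (SD, n = 5) in CBA and 6.82 ± 0.088 (SD, n = 5) in QSi5 mice. The difference of -0.73 (SE 0.16, 95% interval -1.07 to -0.39, adjusted p = 0.0249, limma) placed QSi5 glands at 60.3% of the CBA intensity. Without CBA replicate 1 the difference was -0.58 (limma, adjusted p = 0.0176), so the call did not rest on that mouse. Within the MOE430 2.0 chip the strains differed by -0.86 and within the MOE430A 2.0 chip by -0.53 (strain by chip interaction from limma, adjusted p = 0.930). The call was lost when CBA replicate 2 (limma, adjusted p = 0.0538) or QSi5 replicate 2 (0.0558), 3 (0.0699), 4 (0.0645) or 5 (0.0635) was left out, while the difference stayed between -0.81 and -0.58 whichever mouse was left out.

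**Figure D2:**
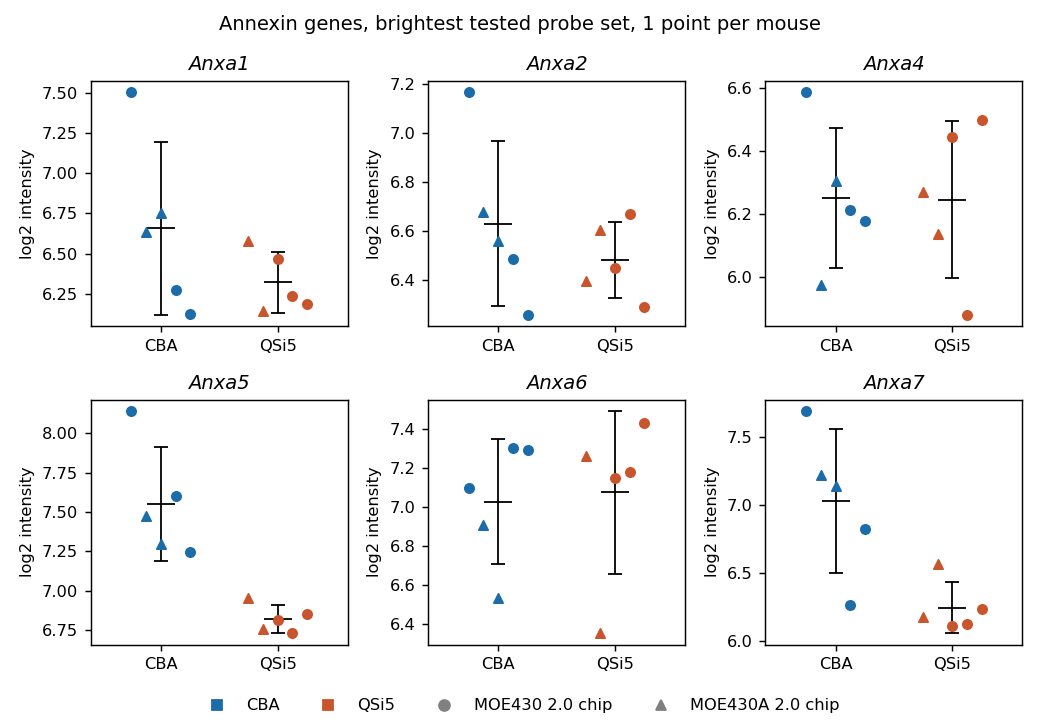
Log2 intensity (vertical axes, each with its own range) of the brightest tested probe set of 6 annexin genes in each mouse, with strain by colour and chip type by symbol. Black marks are the mean and SD of 5 mice. Anxa5 separates the strains fully, at 7.24 to 8.14 in CBA and 6.73 to 6.95 in QSi5 mice, and the first CBA mouse is the highest point for Anxa1, Anxa2, Anxa4, Anxa5 and Anxa7.

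Of 6 tested luminal markers 1 was called, Krt8, a keratin of luminal cells, which was lower in QSi5 glands (log2 difference -0.83, limma, adjusted p = 0.0161). Of 10 tested secretory markers 1 was called, Xdh, an enzyme needed for fat globule secretion, which was higher (0.73, limma, adjusted p = 0.00108). The median log2 difference was -0.24 for the luminal list and 0.0053 for the secretory list. The summed unlogged level of the luminal list ranged from 1002 to 2111 in CBA and from 968 to 1201 in QSi5 mice. Its part in the Anxa5 difference was not tested. The endothelial, fibroblast, myoepithelial, adipocyte, myeloid and lymphocyte lists held no called gene, beside 2.7% called over all genes.

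Anxa4, an annexin of polarised epithelia, gave different answers on its probe sets. On the brighter probe set, 1421223_a_at, the CBA mice read 6.59, 5.97, 6.30, 6.21 and 6.18 (replicates 1 to 5) and the QSi5 mice 6.27, 6.14, 6.44, 5.88 and 6.50. The strains covered nearly the same range, and the log2 difference was -0.0048 (SE 0.14, 95% interval -0.32 to 0.31, limma, adjusted p = 0.991). Its sign turned to positive, at 0.035, after a second quantile normalization, so it has no settled direction. On the dim probe set, 1424176_a_at, the CBA mice read 4.75, 4.60, 3.93, 4.60 and 3.93, and the QSi5 mice 3.38, 3.60, 3.39, 3.24 and 3.27. Here every QSi5 mouse lay below every CBA mouse, while 5.14% of all tested probe sets had strains that did not overlap. The measured log2 difference was -0.99. Every QSi5 value and those of CBA replicates 3 and 5 were under the minimum of 4.32, so the size of this difference is uncertain.

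The dim probe set of Anxa4 entered the test through the CBA mice alone, with a mean of 4.36 in CBA and 3.38 in QSi5 mice around the minimum of 4.32, so its passing the minimum is tied to its difference and the adjusted p of 0.00790 from limma is not read as support. With no minimum set, a fit in which its entry did not depend on the strains, the adjusted p was 0.0114 (limma). It fell below the minimum, and was then not tested, when CBA replicate 1, 2 or 4 was left out. The strain difference was larger on the dim than on the bright probe set by 0.98 on the log2 scale within mice, and by 0.97 without CBA replicate 1. These are descriptions with no test, for the same reason. By chip type, the dim probe set differed by -1.13 (MOE430 2.0) and -0.77 (MOE430A 2.0). Which transcripts each probe set detects, and whether the strains differ in sequence under the probes, was not tested.

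**Figure D3:**
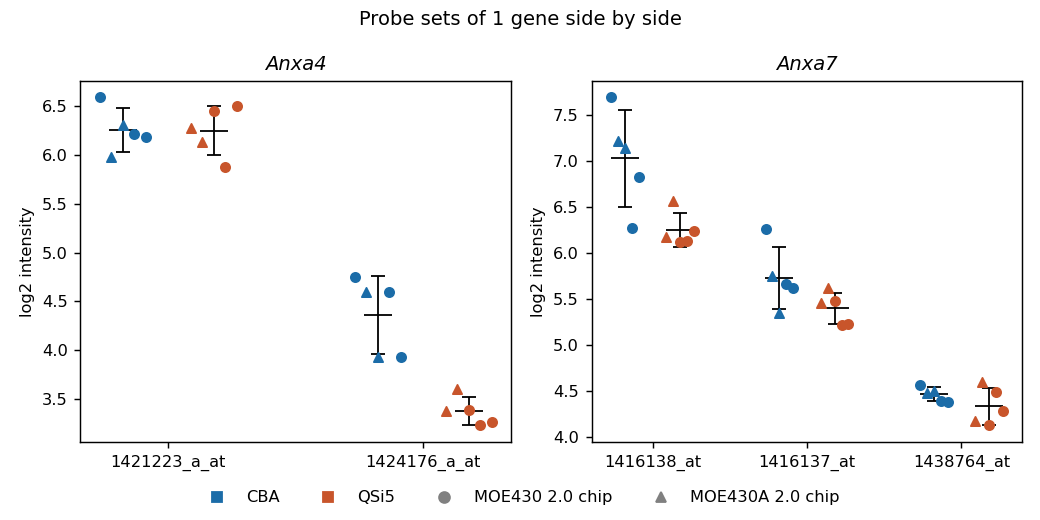
Log2 intensity (vertical axes) of every tested probe set of Anxa4 and of Anxa7 in each mouse, with CBA on the left and QSi5 on the right of each pair, chip type by symbol, and the mean and SD of 5 mice in black. For Anxa4 the strains share one range on 1421223_a_at and lie apart on 1424176_a_at, from 3.93 to 4.75 against 3.24 to 3.60.

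Anxa7 (synexin), an annexin first described for joining secretory granule membranes, had the most negative difference among the brightest probe sets but did not pass the test. On 1416138_at the CBA mice read 7.69, 7.22, 7.14, 6.27 and 6.82, and the QSi5 mice 6.18, 6.57, 6.11, 6.13 and 6.24. The groups overlapped through CBA replicate 4 and QSi5 replicate 2, and 4 of the 5 CBA mice lay above every QSi5 mouse. The log2 difference was -0.78 (SE 0.22, 95% interval -1.26 to -0.31, limma, unadjusted p = 0.00370, adjusted p = 0.0898). It was -0.62 without CBA replicate 1 (limma, adjusted p = 0.141) and -0.97 without CBA replicate 4 (limma, adjusted p = 0.00851), so the call turned on which CBA mice were included. With array weights it also passed (limma, adjusted p = 0.0445).

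The other Anxa7 probe sets gave smaller differences in the same direction. On 1416137_at the log2 difference was -0.33 (SE 0.16, limma, adjusted p = 0.361), and the levels ran from 5.34 to 6.26 in CBA and from 5.22 to 5.61 in QSi5 mice. On 1438764_at it was -0.13 (SE 0.11, limma, adjusted p = 0.641), with levels from 4.39 to 4.56 in CBA and from 4.13 to 4.60 in QSi5 mice. Between 1416138_at and 1438764_at the strain difference differed by 0.65 within mice (exact permutation test over all splits of the mice into 5 and 5, two-sided, p = 0.0397). The adjusted p over 4 pairs of probe sets of a gene was 0.0794, and 0.0476 after chip type means were removed (exact permutation test). These 4 pairs include the Anxa4 pair, given above with no test, which lowers the adjusted p of the others. The Anxa7 pair is therefore not called. By chip type, 1416138_at differed by -0.77 (MOE430 2.0) and -0.81 (MOE430A 2.0), and 1416137_at by -0.54 and -0.01 in the same order.

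Anxa1, which restrains inflammation through formyl peptide receptors, did not pass the test. The CBA mice read 7.51, 6.64, 6.76, 6.27 and 6.12 on the log2 scale and the QSi5 mice 6.58, 6.14, 6.47, 6.24 and 6.18. Most of the distance between the means came from CBA replicate 1, since the difference of -0.34 (SE 0.22, 95% interval -0.82 to 0.15, limma, adjusted p = 0.538) was -0.12 without that mouse (limma, adjusted p = 0.763). Anxa2, which pairs with S100a10 at the plasma membrane and binds plasminogen and its activator, behaved alike. Its CBA values were 7.17, 6.68, 6.56, 6.49 and 6.26, and its QSi5 values 6.40, 6.60, 6.45, 6.67 and 6.29. The difference was -0.15 (SE 0.16, 95% interval -0.49 to 0.19, limma, adjusted p = 0.716) with all mice and -0.01 without CBA replicate 1.

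Anxa6, the annexin with a doubled core, was the 1 tested annexin with a mean above that of CBA mice. The CBA mice read 7.10, 6.91, 6.53, 7.30 and 7.29, and the QSi5 mice 7.26, 6.35, 7.15, 7.18 and 7.43. QSi5 replicate 2 lay far below the other QSi5 mice. Those ran from 7.15 to 7.43, within the upper part of the CBA range of 6.53 to 7.30 or above it. The difference was 0.05 (SE 0.21, 95% interval -0.40 to 0.50, limma, adjusted p = 0.942), and it ran from -0.08 to 0.23 when each mouse was left out in turn. The intervals of Anxa1, Anxa2, Anxa4 (bright probe set) and Anxa6 leave room for differences in either direction.

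Because Anxa5 was singled out here by its small p, its distance from the other annexins is a description with no test. Within mice, the log2 difference of Anxa5 was lower than that of Anxa1 by 0.39, of Anxa2 by 0.58, of bright-probe-set Anxa4 by 0.72 and of Anxa6 by 0.78. Against Anxa7 on 1416138_at it was 0.05 higher. Anxa5 and Anxa7 thus had strain differences of like size, and they part in the spread within both strains. The SDs in CBA mice were 0.36 for Anxa5 and 0.53 for Anxa7, and in QSi5 mice 0.088 and 0.19. On 6 of the 9 tested annexin probe sets the SD was larger in CBA than in QSi5 mice, which is 66.7% beside 60.0% of all tested probe sets.

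The remaining annexins were below the minimum in both strains and were not part of the main test. Anxa3, which lay closest to it, had 4.46, 4.34, 4.0, 4.10 and 4.11 in CBA mice and 4.16, 3.78, 3.95, 4.12 and 3.79 in QSi5 mice. Its mean was 4.20 in CBA and 3.96 in QSi5 mice, and with no minimum set its difference of -0.24 had an adjusted p of 0.474 (limma). Anxa8, an annexin of stratified and ductal epithelia, ranged from 3.73 to 3.91 in CBA and from 3.84 to 4.06 in QSi5 mice on 1417732_at, and its other probe set from 3.62 to 3.82 and from 3.59 to 3.93. Anxa9 ranged from 3.38 to 4.0 in CBA and from 3.52 to 3.84 in QSi5 mice. The strains overlapped for each of them. The dim probe sets of Anxa2 (1437692_x_at and 1437691_at) and Anxa6 (1429246_a_at and 1429247_at) reached at most 3.73 in any mouse. With no minimum, the adjusted p of these 8 probe sets ran from 0.474 to 0.984 (limma).

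The annexins did not vary together among mice of a strain by the tests used. After each strain's mean was removed, CBA replicate 1 stood 0.85 above it for Anxa1, 0.66 for Anxa7, 0.59 for Anxa5, 0.54 for Anxa2 and 0.34 for Anxa4, but only 0.07 for Anxa6. Of 15 pairs among the 6 tested genes, 12 had a positive Pearson r over the 10 mice, and 0 passed after adjustment (exact permutation of mice within strains, 14400 orders, two-sided). For Anxa1 and Anxa5 the Pearson r was 0.79 (permutation p = 0.0638, adjusted p = 0.253) and Spearman's rho 0.48 (permutation p = 0.235, adjusted p = 0.478). For Anxa1 and Anxa2 the Pearson r was 0.78 (permutation p = 0.0506, adjusted p = 0.253) and rho 0.52 (permutation p = 0.170, adjusted p = 0.429). Without the mice farthest from the median, CBA replicates 1 and 5, these r values were -0.17 for Anxa1 and Anxa5 and -0.04 for Anxa1 and Anxa2. Both pooled values thus depended on those mice. Among the QSi5 mice alone, r was 0.70 for Anxa1 and Anxa5 and -0.32 for Anxa1 and Anxa2, given with no test. At an unadjusted p under 0.05, 0 pairs passed by r and 2 by rho, Anxa6 with Anxa7 and Anxa6 with Anxa2, both negative at -0.68 and with an adjusted p of 0.347 (exact permutation).

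**Figure D4:**
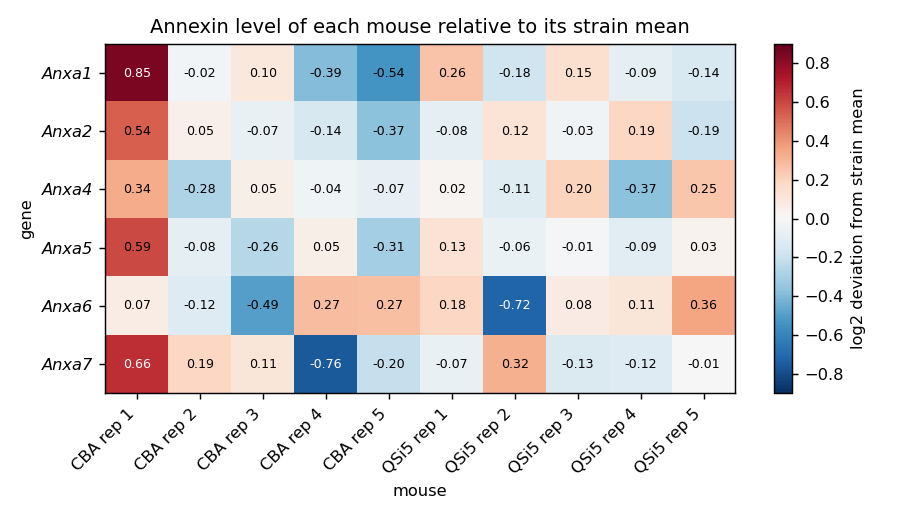
Log2 deviation of each mouse (columns) from the mean of its strain for the brightest tested probe set of 6 annexins (rows), with red above and blue below the mean. CBA rep 1 (CBA replicate 1) is above its strain mean for all 6 genes, by 0.07 for Anxa6 and 0.34 to 0.85 for the others.

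Most genes in a list of annexin partners could not be tested. Of 16 genes in it, 13 had a probe set and 7 were tested. By limma 0 of the 7 were called in either direction, with 0 at an unadjusted p under 0.05, and since 2.7% of all genes were called, a count of 0 among so few is near the background. S100a10, the S100 protein that forms a tetramer with Anxa2, had a log2 difference of -0.17 (SE 0.16, 95% interval -0.52 to 0.18, limma, adjusted p = 0.684) on its brightest probe set and -0.06 on the other. Pdcd6, a penta-EF-hand protein that binds Anxa7 and Anxa11, had 0.01 (SE 0.13, adjusted p = 0.978). Ahnak, a giant scaffold that binds the complex of Anxa2 and S100a10, had -0.60 (SE 0.39, limma, adjusted p = 0.535). It too was highest in CBA replicate 1, at 8.76 against 6.39 to 7.82 in the other CBA mice. Its difference without that mouse is not given here. Fpr2, a receptor for Anxa1, stayed below the minimum at 3.38 in CBA and 3.42 in QSi5 mice. S100a11, Fpr1 and Fpr3 have no value here.

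Among genes that move or bind phosphatidylserine, the lipid that annexins recognise, 1 of 9 tested genes was lower in QSi5 glands and 0 were higher. Over all genes 1.39% were lower and 1.32% higher, and 1 call among 9 genes is not read as a result about the list. The list held 19 genes, 13 of them with a probe set, and its median log2 difference was 0.02, beside 0.0038 over all genes. The lower gene was Plscr1, a phospholipid scramblase that is also induced by interferon. Its brightest probe set read 6.93, 7.51, 7.15, 5.93 and 6.50 in CBA mice and 5.98, 5.64, 5.27, 5.06 and 6.04 in QSi5 mice. The strains touched only through CBA replicate 4 and QSi5 replicates 1 and 5, and the difference was -1.21 (SE 0.28, limma, adjusted p = 0.0403), or -1.0 (MOE430 2.0) and -1.52 (MOE430A 2.0) by chip type. The other tested Plscr1 probe set also passed, at -1.07 (SE 0.25, limma, adjusted p = 0.0362). There the strains lay narrowly apart, from 6.06 to 7.17 in CBA and from 4.82 to 6.04 in QSi5 mice. By brightest probe set, no gene of this or the partner list was called when any mouse other than CBA replicate 4 was left out. The Plscr1 call on its brightest probe set was thus lost in 9 of 10 such fits. Values of its other probe set in those fits are not given here. Mfge8, the milk fat globule protein that binds phosphatidylserine and bridges dying cells to phagocytes, had means of 12.61 ± 0.30 (SD, n = 5) in CBA and 12.24 ± 0.16 (SD, n = 5) in QSi5 mice and did not pass (difference -0.37, SE 0.15, limma, adjusted p = 0.247). The synthases Ptdss1 and Ptdss2 did not pass either, at 0.05 for Ptdss1 (SE 0.13, limma, adjusted p = 0.909) and 0.01 for Ptdss2 (SE 0.14, adjusted p = 0.976). Plscr1 was already known from earlier results of these arrays, so its place in the list adds no separate support.

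**Figure D5:**
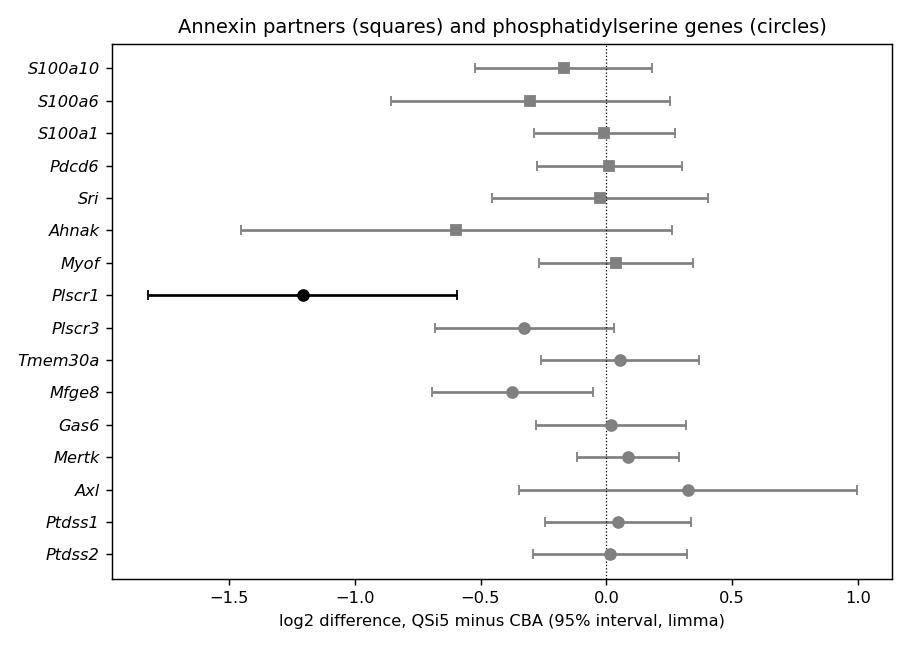
Log2 difference between the strains (horizontal axis, QSi5 minus CBA, with 95% intervals from limma) for the tested annexin partners (squares) and phosphatidylserine genes (circles), each on its brightest tested probe set. Plscr1, in black, is the 1 called gene at -1.21, and Mfge8 lies at -0.37 without passing.

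The genes whose levels over the 10 arrays were most like those of Anxa5 were Lxn (Pearson r 0.97), Timp1 (0.95), Armc10 (0.95), Aktip (0.94) and Dst (0.94). They were picked as the highest of all tested genes, and the arrays share the strain difference, so these values describe likeness and carry no test. Lxn, an inhibitor of carboxypeptidases, read 7.49, 6.98, 6.79, 7.13 and 6.63 in CBA mice and 6.31, 6.03, 5.90, 5.85 and 6.30 in QSi5 mice, with the same mouse highest as for Anxa5. Timp1, an inhibitor of matrix metalloproteinases, ran from 6.21 to 6.89 in CBA and from 5.76 to 5.91 in QSi5 mice. Armc10 (3.76 to 3.90), Aktip (3.65 to 4.22) and Dst (3.95 to 4.13) were below the minimum in every QSi5 mouse. These genes entered the test through the CBA mice alone, so their place among the most alike is tied to their strain difference. Aktip and Dst were not called (limma, adjusted p = 0.138 and 0.0820). Lxn and Timp1 were called (limma, adjusted p = 0.00837 and 0.0143), and the Armc10 call (0.0371) is not read as support. After strain means were removed, r with Anxa5 was 0.90 for Lxn, 0.83 for Timp1, 0.82 for Armc10, 0.92 for Aktip and 0.84 for Dst. All 5 were highest in CBA replicate 1, and without that mouse these values were 0.88 for Lxn, 0.18 for Timp1, 0.57 for Armc10, 0.60 for Aktip and 0.24 for Dst, so the likeness within strains rested on it for Timp1 and Dst.

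Genes beside Anxa5 and Anxa4 in RefSeq order were looked at for differences of their own. Of the 3 nearest tested genes on each side of Anxa5, none was called, and the nearest to the threshold was Dcun1d1, which differed in the opposite direction (0.40, SE 0.098, limma, adjusted p = 0.0538). The nearest tested genes on its sides were not called, Exosc9 at -0.05 (SE 0.11, limma, adjusted p = 0.880) and Acad9 at -0.12 (SE 0.14, adjusted p = 0.751). Around Anxa4 none of 6 was called either, with Aak1 at -0.46 (SE 0.16, limma, adjusted p = 0.184) and Gmcl1 at 0.12 (SE 0.091, adjusted p = 0.599) as the nearest tested genes. Of these 12 neighbours, 3 (Dcun1d1, Aak1 and Pcbp1) had an unadjusted p under 0.05 (limma), beside 14.9% of all genes.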

How the data were processed

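Total RNA of 10 glands was labelled and hybridised, 1 array per mouse. The deposited log2 intensities were made by the authors with RMA in the affy package (background correction, quantile normalization, 1 summary per probe set), both chip types being normalised on the 22690 probe sets they share; versions are not given in the sources used here. After 64 controls were set aside, 20380 probe sets carried 1 symbol, 691 several and 1555 none here. Probe sets with a strain mean above 20 unlogged went into limma (version 3.58.1, under R 4.3.3, with lmFit, eBayes, two-sided, QSi5 minus CBA, all 10 arrays, Benjamini-Hochberg over 11412), and a gene stood by its brightest tested probe set. Exact permutation tests used numpy 2.4.6 in Python 3.11.15. Named genes are every annexin probe set, called members of the partner and phosphatidylserine lists with a few set in advance, the 5 genes most like Anxa5, and the neighbours of called annexins. Cd14, Krt8, Xdh and Ahnak were named after their values were seen. Members and lists were chosen with earlier results of these data known. The fit was tested on simulated data. Alternatives changed the minimum, the normalization, the probe sets used, chip type, the replicate block, the variance model and each mouse in turn. The number of arrays limits the precision. No column of another series was present (0).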

Additional observations from a re-analysis of the deposited data

Results flagged for a closer look

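In 34 groups of 5 mice (17 annexin probe sets in 2 strains), 2 held a mouse far from the other 4 by Dixon's criterion, a gap above 0.71 of the range, and chance alone flags about 1 in 20 groups. Anxa6 on 1415818_at was 6.35 in QSi5 replicate 2 against 7.15 in the nearest QSi5 mouse. Anxa7 on 1416138_at was 6.57 in the same mouse against 6.24 in the nearest. Both are given as values.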

How the results depend on the processing

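The Anxa5 probe set kept its direction in all 21 alternatives, from -0.86 to -0.53, and passed in 14. It was lost on each chip type alone (MOE430 2.0 arrays -0.86, limma adjusted p = 0.145, MOE430A 2.0 arrays -0.53, 0.409) and without the 5 mice named with it. The dim Anxa4 probe set fell below the minimum and had no test in 5 alternatives (a minimum of 50, the MOE430A 2.0 arrays alone, and without CBA replicate 1, 2 or 4) and did not pass on the MOE430 2.0 arrays alone (adjusted p = 0.0534). Those in which it passed kept the CBA mean above the minimum or set none. The count of annexin genes called lower was 1 in the main analysis, 0 on the MOE430 2.0 arrays alone, 0 on the MOE430A 2.0 arrays alone, 2 with array weights, 2 where any called probe set counted, and 0 to 2 with each mouse left out. No annexin was called higher in any of these. Partner and phosphatidylserine genes called lower numbered 1, but 0 with no minimum, with median centring and on either chip type alone, and 0 to 1 with each mouse left out. Over all probe sets 336 were called, 146 on the MOE430 2.0 arrays alone, 65 on the MOE430A 2.0 arrays alone, and 215 (without QSi5 replicate 3) to 415 with each mouse left out, the second lowest being 221 (without QSi5 replicate 5).

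The sign of the bright Anxa4 probe set turned with a second quantile normalization (0.035), on the MOE430A 2.0 arrays alone (0.064), with array weights (0.093) and among the mice left out in turn (-0.074 to 0.087), and that of Anxa6 among the mice left out (-0.075 to 0.23). Without the 2 mice farthest from the median, r turned negative for Anxa1 with Anxa2 (-0.041), Anxa1 with Anxa5 (-0.17), Anxa2 with Anxa4 (-0.88), Anxa2 with Anxa5 (-0.53), Anxa4 with Anxa5 (-0.12), Anxa4 with Anxa7 (-0.43) and Anxa5 with Anxa7 (-0.61). The cause was not tested. The values without CBA replicate 1 for medians, probe set pairs, likeness to Anxa5 and Anxa5 against other annexins were chosen after the data were seen.

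The replicate numbers of the titles do not pair mice across strains: same-numbered deviations correlated between -0.37 and 0.292. With a replicate block 260 probe sets were called and Anxa5 kept its call (limma, adjusted p = 0.0411). With few arrays, small differences in the annexins that did not pass cannot be told from 0.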

Other observations

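The marker lists gave these counts. Of 10 tested secretory genes 1 was higher in QSi5 glands, and of 6 tested luminal genes 1 was lower. No gene was called among 7 myoepithelial, 3 endothelial, 6 fibroblast, 5 adipocyte, 5 macrophage and neutrophil genes and 1 lymphocyte gene. Over all genes 2.7% were called, 1.39% as lower and 1.32% as higher. Counts of 0 or 1 in lists this short are near that background and are not read as differences between cell types. Pecam1, Tek, Tie1 and Emcn of the endothelial list and all lymphocyte markers but Cd3e were below the minimum. S100a8, a neutrophil protein, was 8.48 in CBA replicate 3 and 3.20 to 3.44 in the other CBA mice, while Anxa1 in that mouse, at 6.76, was 0.10 above the mean of its strain.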
